A study of Mus musculus with 8 samples.

Results

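Transcripts of 10 plexins, neuropilins and semaphorins were followed in thioglycollate-elicited peritoneal macrophages of wild-type mice and of mice with a knockout of Men1, the gene of menin, a scaffold of histone H3K4 methyltransferase complexes. The genes are the 4 plexins Plxnd1, Plxna1, Plxnb2 and Plxnc1, the 2 neuropilins Nrp1 and Nrp2, and the 4 semaphorins Sema4a, Sema4d, Sema6d and Sema7a. They are 10 of the 54532 gene rows of the count table, and 10 of 10 were among the 13646 genes tested in M_KO against M_WT. The members were selected on the log2 fold changes and library values of that comparison, to ask whether Plxnd1 was higher in the knockout alone. The M_KO against M_WT values of these genes are therefore a description, for which no test is offered.

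Semaphorins are secreted or membrane-bound guidance proteins that share an extracellular sema domain, and plexins are their main receptors. Plexins act through a cytoplasmic GAP domain for small Ras-family GTPases and so change adhesion and the cytoskeleton. Neuropilins have a short cytoplasmic tail and serve as co-receptors, with plexins for class 3 semaphorins and with VEGF receptors for VEGF. In immune cells the family is known for cell contact, migration and costimulation.

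RNA was sequenced from 3 M_WT, 3 M_KO, 1 F_WT and 1 F_KO libraries, each titled with its own animal number. In all 4 groups the cells are labelled macrophages from the peritoneal cavity elicited with thioglycollate, a sterile irritant by which leukocytes are recruited. M_WT and F_WT carry the genotype label WT, and M_KO and F_KO the label KO. What M and F stand for is not spelled out, and both letters are kept as written. The sources used here do not give strain, age, the knockout allele or any Cre driver. Total counts ran from 18206427 to 22853583 per library. Levels are given as CPM, counts scaled to the library total with TMM factors, and as FPKM, which also divides by gene length, where genes are compared with each other.

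The targeted gene Men1 measured 17.1 to 25.8 CPM over the M_WT libraries and 6.51 to 8.33 CPM over the M_KO libraries, where 35.7% of the M_WT mean remained. F_WT had 17.95 CPM of Men1, and F_KO 11.8 CPM, or 0.656 times as much. F_KO thus lay above every M_KO library. The macrophage markers Adgre1, Csf1r, Cd68, Itgam, Lyz2, Mertk, Fcgr1 and Cd14 were all measured, and their sum was 20820 to 32230 CPM in M_WT and 17950 to 20720 CPM in M_KO. Most of that sum was Lyz2 (12880 to 20620 CPM in M_WT, 9084 to 11560 CPM in M_KO), and without it the groups overlapped, at 7903 to 11610 CPM and 7204 to 9165 CPM. Csf1r went the other way, at 1234 to 1556 CPM in M_WT and 1827 to 2073 CPM in M_KO. Of 6 endothelial markers, 4 stayed under 1 CPM in every library and the sum reached at most 6.17 CPM. Of 6 T cell markers, Cd3e, Cd3d, Cd3g, Cd8a and Cd4 stayed under 1 CPM, and of 7 neutrophil markers 4 did. B cell markers (7 of 7 measured) summed to 72.6 to 182.3 CPM in M_WT, 97.1 to 292.1 CPM in M_KO, with 214.8 (F_WT) and 345.5 (F_KO) CPM in the F pair. The sum of 6 dendritic cell markers was 14.96 to 31.0 CPM in M_WT and 9.02 to 12.3 CPM in M_KO. The gap came from Cd209a, at 15.3 and 14.5 CPM in M_WT_6258 and M_WT_6255 and at most 0.155 CPM elsewhere, and without it the groups overlapped (11.3 to 15.7 and 8.96 to 12.3 CPM). In bulk RNA, fewer cells of a type and less RNA per cell cannot be told apart.

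Plxnd1 (ENSMUSG00000030123, chromosome 6, 115954811 to 115995005, minus strand, GRCm38) encodes the receptor of Sema3e and is best known from vascular patterning. Its level was 51.8, 64.3 and 65.1 CPM in M_WT_5643, M_WT_6258 and M_WT_6255, and 155.8, 239.9 and 138.2 CPM in M_KO_5944, M_KO_5645 and M_KO_5642. Every M_KO library lay above every M_WT library, and the lowest M_KO value was 2.12 times the highest M_WT value. Mean Plxnd1 was 60.4 ± 7.51 CPM in M_WT against 178.0 ± 54.4 CPM in M_KO (SD, n = 3 per group), a ratio of 2.95. The fitted log2 fold change was 1.55 (SE 0.23). Among the 13646 genes it ranked number 139 from the highest fold change.

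Plxnd1 in the F pair did not follow the M libraries. F_WT held 212.6 CPM and F_KO 154.1 CPM, or 0.725 times as much (0.693 to 0.758, an exact 95% interval by Clopper and Pearson for counting error alone). Both F libraries thus lay above every M_WT library and inside the range of M_KO, and F_WT stood at 3.52 times the M_WT mean. The low values of Plxnd1 were those of the 3 M_WT libraries. M_KO_5645, the library with the highest Plxnd1, also had the highest B cell and resident large peritoneal macrophage marker sums of the M libraries. These sums were 292.1 and 14110 CPM in M_KO_5645, and 97.1 and 3087 CPM in M_KO_5642, which had the lowest Plxnd1 of M_KO. Over M_WT they were 72.6 to 182.3 CPM and 7067 to 11430 CPM, and both were highest in M_WT_5643, which had the lowest Plxnd1. F_KO also had higher sums than F_WT (345.5 and 11620 CPM against 214.8 and 5650 CPM) and less Plxnd1. The part of these cell types in the difference was not tested.

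The bases just upstream of the Plxnd1 and Plxnb2 start sites are shown because these plexins were the most abundant of those without overlap and higher in M_KO. RefSeq's GRCm38.p6 promoter table held 9 of the 10 genes and lacked Plxna1. Each line gives the 250 bases before the annotated start in the direction of transcription, minus strand for both, at chr6:115995006-115995255 and chr15:89180789-89181038. Capitals mark GGCGTGG and GGGCGG on either strand, the first chosen after the Plxnd1 sequence had been read.
Plxnd1: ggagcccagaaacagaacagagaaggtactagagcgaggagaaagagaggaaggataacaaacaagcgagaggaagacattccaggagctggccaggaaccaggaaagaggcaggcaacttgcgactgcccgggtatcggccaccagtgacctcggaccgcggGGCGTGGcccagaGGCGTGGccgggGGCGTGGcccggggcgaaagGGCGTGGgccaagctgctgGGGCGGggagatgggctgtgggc
Plxnb2: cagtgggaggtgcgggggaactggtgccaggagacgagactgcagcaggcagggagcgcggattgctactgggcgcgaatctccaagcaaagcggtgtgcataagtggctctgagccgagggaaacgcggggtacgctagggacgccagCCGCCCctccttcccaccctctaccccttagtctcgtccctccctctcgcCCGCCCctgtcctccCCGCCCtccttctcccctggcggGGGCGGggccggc
The Plxnd1 window holds 4 copies of GGCGTGG and 1 of GGGCGG, while the Plxnb2 window shown holds 0 and 4. A second RefSeq start of Plxnb2, with its window at chr15:89173952-89174201, has 0 and 3. Of 32851 promoter windows of this length, 7.54% hold at least 1 GGCGTGG and 14 windows (0.0426%) at least 4. GGGCGG is found in 32.7% of windows and at least 4 times in 4.09%. Of the other members, the Plxnc1 window holds 1 GGCGTGG and 4 GGGCGG, the Nrp2 window holds 0 and 5, and the windows of the other 5 hold no GGCGTGG. These are matches of letters and not measured binding sites. As GGCGTGG was chosen from the Plxnd1 window, the small share of windows with as many copies supports nothing about Plxnd1.

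Plxnb2 (ENSMUSG00000036606, chromosome 15, 89155549 to 89180788, minus strand), a receptor of Sema4d and other class 4 semaphorins, was also higher in M_KO. Its level was 260.2, 261.9 and 301.3 CPM in M_WT and 365.6, 456.3 and 367.7 CPM in M_KO, without overlap. Mean Plxnb2 was 274.4 ± 23.2 CPM against 396.5 ± 51.8 CPM (SD, n = 3 per group), with a log2 fold change of 0.53 (SE 0.14). The step was smaller than that of Plxnd1, since the lowest M_KO library stood at 1.21 times the highest M_WT library. In the F pair Plxnb2 measured 306.7 CPM in the wild type against 268.2 CPM in the knockout.

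Plxna1 (ENSMUSG00000030084, chromosome 6, 89316314 to 89362620, minus strand), a receptor shared by class 3 semaphorins with neuropilins and by Sema6d, was lower in M_KO. Its level was 81.1, 67.2 and 68.8 CPM in M_WT and 65.2, 44.8 and 53.0 CPM in M_KO. The groups did not overlap, but M_KO_5944 lay close below M_WT_6258. The log2 fold change was -0.42 (SE 0.17). An antisense gene, Gm26811, overlaps an exon of Plxna1, and itself had 5 to 16 counts per library. Of the macrophage markers, Lyz2 was lower in M_KO without overlap too, while Csf1r was higher without overlap. The summed macrophage markers without Lyz2 overlapped between the groups. The part of cell makeup in the Plxna1 values was not tested.

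Plxnc1 (ENSMUSG00000074785, chromosome 10, 94790866 to 94944835, minus strand), the plexin that binds Sema7a, did not separate the genotypes. The M_WT libraries held 14.7, 18.9 and 16.0 CPM. In M_KO its level was 31.7 and 31.0 CPM in M_KO_5645 and M_KO_5642 but 14.7 CPM in M_KO_5944, level with the lowest M_WT library. The log2 fold change of 0.64 (SE 0.30) became 0.92 without M_KO_5944.

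**Figure D1:**
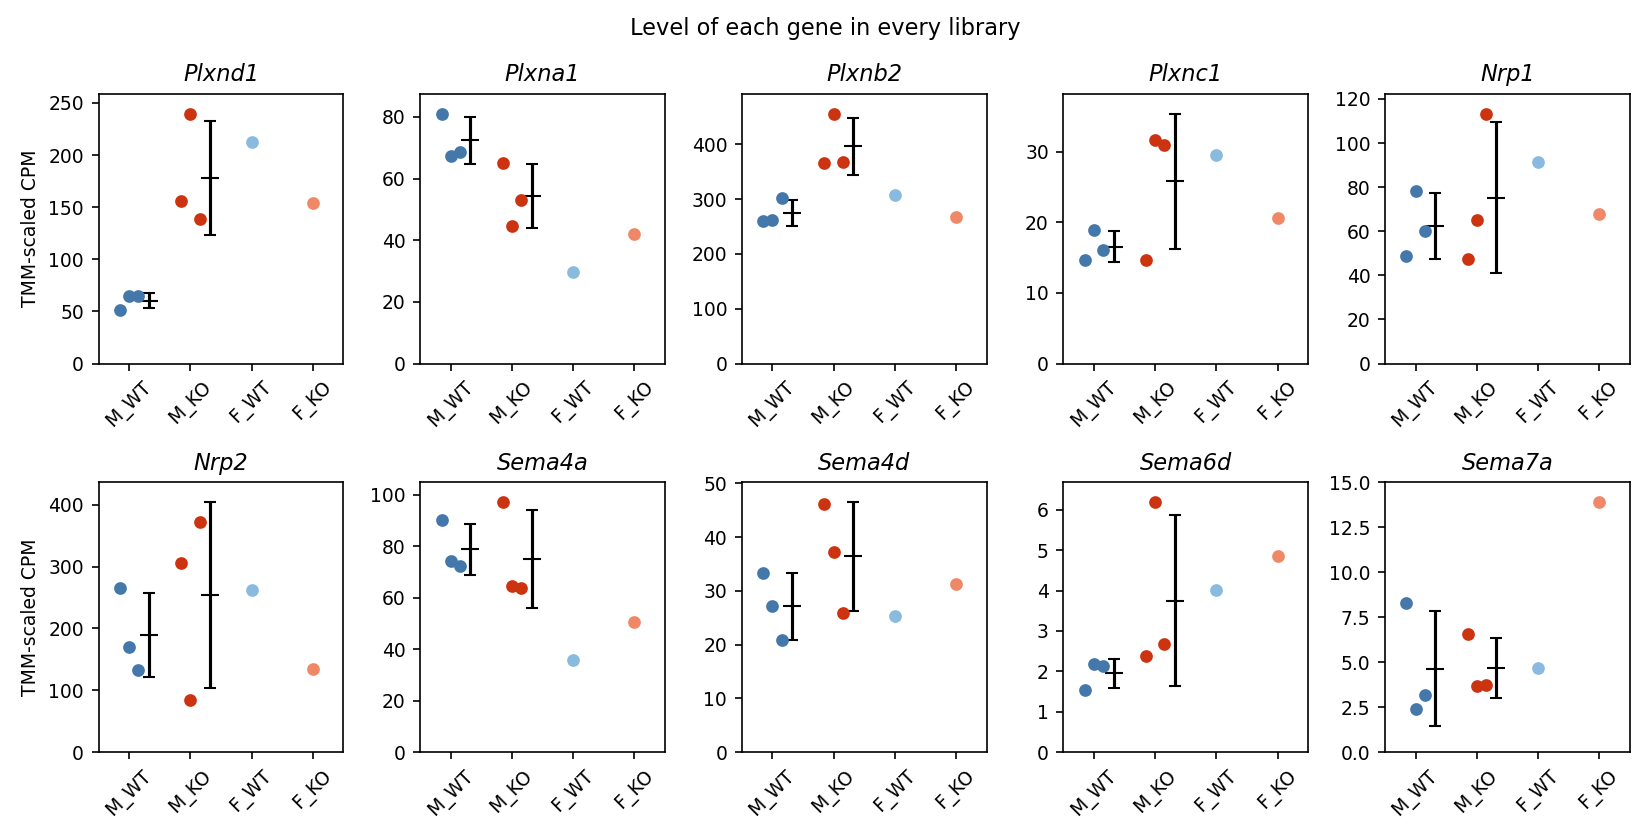
TMM-scaled CPM (vertical axes, each starting at 0) of the 10 genes in the 8 libraries by group, with points for libraries and black marks for the mean and SD of the groups of 3. For Plxnd1 the M_WT points (51.8 to 65.1) lie below all others, while for Nrp2 the M_KO points alone span 84.9 to 372.1.

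Set against each other per length, the plexins changed in makeup. The 9 mouse plexins summed to 52.9, 53.7 and 58.0 FPKM in M_WT and to 78.9, 101.1 and 75.9 FPKM in M_KO. Plxnd1 made up 13.4%, 16.4% and 15.2% of that sum in M_WT and 27.0%, 31.9% and 24.6% in M_KO. Plxnb2 was the most abundant plexin in every library, at 63.2% to 66.5% in M_WT and 57.4% to 62.0% in M_KO. Plxna1 made up 13.0% to 16.9% in M_WT and 4.80% to 9.10% in M_KO. Levels of Plxnd1 and Plxna1 were near each other in M_WT, with a ratio of 0.791 to 1.19, and stood apart in M_KO, with a ratio of 2.96 to 6.64. In F_WT and F_KO, Plxnd1 took 37.8% and 32.8% of the plexin sum, above its share in any M library. Shares add up to a whole, so a higher share of Plxnd1 lowers the shares of the others.

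**Figure D2:**
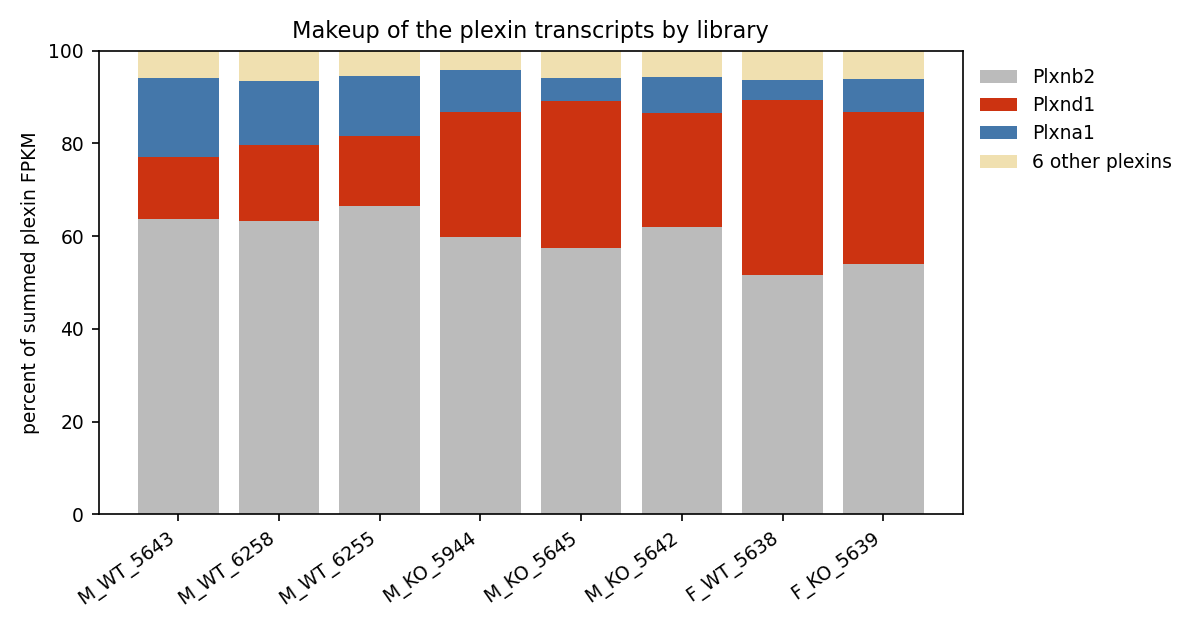
Percent of the summed FPKM of the 9 plexins (vertical axis) in each library (horizontal axis), stacked by gene. The Plxnd1 segment is 13.4% to 16.4% in the M_WT bars and 24.6% to 37.8% in the other bars.

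The neuropilins varied more between animals of a genotype than between genotypes. Nrp2 (ENSMUSG00000025969, chromosome 1, 62703285 to 62818695, plus strand), a co-receptor for class 3 semaphorins and VEGF-C, measured 265.7, 170.5 and 132.3 CPM in the M_WT libraries against 306.1, 84.9 and 372.1 CPM in the M_KO libraries. M_KO thus held both the lowest and the highest of the 8 libraries, 4.38 times apart. The log2 fold change of 0.42 (SE 0.53) was 0.84 without M_KO_5645, 0.75 without M_WT_5643, 0.27 without M_KO_5944, 0.22 without M_WT_6255 and 0.04 without M_KO_5642. Nrp1 (ENSMUSG00000025810, chromosome 8, 128358604 to 128503363, plus strand), the co-receptor for Sema3a and VEGF-A, measured 48.8, 78.2 and 60.3 CPM in the M_WT libraries against 47.4, 64.9 and 113.4 CPM in M_KO. Its log2 fold change of 0.27 (SE 0.34) turned to -0.16 without M_KO_5642, was 0.12 without M_WT_5643, 0.46 without M_WT_6258 and 0.52 without M_KO_5944. The summed markers of resident large peritoneal macrophages were lowest in M_KO_5642, at 3087 CPM against 7067 to 14110 CPM in the other M libraries, and their part in the neuropilin values was not tested. Per length, Nrp2 exceeded Nrp1 in every library, by 1.081 times in M_KO_5645 and by 5.33 times in M_KO_5944.

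Of the semaphorins, Sema4a (ENSMUSG00000028064, chromosome 3, 88435959 to 88461182, minus strand) is a membrane-bound ligand of myeloid cells that costimulates T cells and also binds Plxnd1. Its values were 90.1, 74.1 and 72.1 CPM in the M_WT libraries against 97.2, 64.4 and 63.8 CPM in M_KO, with overlap and a log2 fold change of -0.07 (SE 0.20). That value changed sign, to at most 0.04, without M_WT_5643, M_KO_5645 or M_KO_5642, and was -0.30 without M_KO_5944. Sema4a alone gave 43.2% to 46.0% of the summed FPKM of 20 semaphorins in M_WT. Both F libraries, with 35.8 CPM (F_WT) and 50.6 CPM (F_KO), lay below every M library.

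Sema4d (ENSMUSG00000021451, chromosome 13, 51685529 to 51793747, minus strand), a ligand of B-type plexins and of Cd72 on lymphocytes, had 33.3, 27.2 and 20.8 CPM in the M_WT libraries against 46.1, 37.2 and 25.96 CPM in M_KO. The groups overlapped through M_KO_5642, and the log2 fold change was 0.42 (SE 0.26). It was 0.61 without M_KO_5642, 0.26 without M_WT_6255 and 0.22 without M_KO_5944.

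Sema6d (ENSMUSG00000027200, chromosome 2, 124089969 to 124667770, plus strand), a transmembrane ligand of Plxna1, was the scarcest member. Its counts were 31, 41 and 42 in M_WT and 42, 120 and 68 in M_KO, or 1.53, 2.18 and 2.13 CPM against 2.38, 6.20 and 2.68 CPM. The groups did not overlap, yet the gap between the nearest libraries was only 1.09 times. The log2 fold change of 0.94 (SE 0.43) rested largely on M_KO_5645 and was 0.38 without it. On the log2(FPKM + 1) scale, which understates changes of genes this low, the value was 0.18. M_KO_5645 was the library richest in B cell and in resident large peritoneal macrophage markers among the M libraries. Within M_WT, M_WT_5643 was the richest in both and had the least Sema6d. The part of these cell types in the difference was not tested.

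Sema7a (ENSMUSG00000038264, chromosome 9, 57940112 to 57962865, plus strand), a GPI-anchored ligand of Plxnc1 and of integrins, had 8.30, 2.40 and 3.19 CPM in the M_WT libraries against 6.58, 3.67 and 3.75 CPM in M_KO. M_WT_5643 stood above the other M libraries, and the fitted difference was 0.00 on the log2 scale (SE 0.51), with a sign that depended on the scaling. Without M_WT_5643 it was 0.74, and without M_KO_5944 or M_WT_6258 it was -0.32. The summed markers of mast cells and basophils were 16.8 CPM in M_WT_5643 and 22.7 CPM in M_KO_5944. In the other M libraries they were 1.58 to 7.59 CPM, and in F_WT and F_KO 2.63 and 5.24 CPM. F_KO nevertheless had the highest Sema7a of the 8 libraries, at 13.9 CPM against 4.69 CPM in F_WT. The part of mast cells and basophils in the Sema7a values was not tested.

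Plxnd1 was thus not the only member that separated the M genotypes. In all, 3 members were higher in M_KO without overlap (Plxnd1, Plxnb2 and Sema6d), where 9.0% of all tested genes were, and 1 was lower without overlap (Plxna1), where 7.15% were. Plxnd1 had the largest fold change of the 10. Its log2 fold change exceeded the median of the other 9 members (0.42) by 1.13, and no other member reached 1. EdgeR's quasi-likelihood test called 0 members, against 0.022% of all tested genes (0.0147% higher and 0.00733% lower in M_KO), with 3 members at an unadjusted p under 0.05, where 9.56% of all tested genes were. DESeq2 called 1 member, Plxnd1, where it called 1.19% of genes (0.6% higher and 0.593% lower). The authors' deposited table likewise calls Plxnd1 and no other member, with 0.553% of its genes called (0.272% higher and 0.281% lower). Since the genes were picked with this comparison known, these counts describe the set and support nothing about it.

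The F pair has 1 library per genotype and allows no test. Men1 in F_KO stood at 0.656 times F_WT, whereas the M_KO mean stood at 0.357 times the M_WT mean. Of the 10 members, 5 were higher and 5 lower in F_KO. The members higher in F_KO were Plxna1 and all 4 semaphorins, and the members lower were Plxnd1, Plxnb2, Plxnc1, Nrp1 and Nrp2. Sema7a had 4.69 CPM in F_WT against 13.9 CPM in F_KO, a ratio of 2.96 (interval 2.37 to 3.72), which made it the only member more than 1.5-fold higher, where 12.7% of genes were. Nrp2 was at 261.7 and 134.4 CPM, a ratio of 0.514 (interval 0.491 to 0.537), the only member more than 1.5-fold lower, where 13.9% of genes were. For Sema6d the interval of the ratio, 0.906 to 1.62, included no difference.

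The sign of the difference was the same in M and F for 3 members (Sema4d, Sema6d and Sema7a), although the M value of Sema7a was near 0. It was opposite for 7, while 56.3% of all tested genes had the same sign. Among these 7, the M differences of Sema4a (-0.07, SE 0.20), Nrp1 (0.27, SE 0.34) and Nrp2 (0.42, SE 0.53) were smaller than their SE. The signs of these genes in M were therefore not settled. Of the 4 members without overlap in M, 3 had the opposite sign in F, against 43.4% of the 2204 such genes. The F ratios were 1.41 for Plxna1 (interval 1.28 to 1.57) and 0.875 for Plxnb2 (interval 0.844 to 0.906). For comparison, the highest M_KO library exceeded the lowest by 1.74 times for Plxnd1, 1.25 times for Plxnb2 and 1.46 times for Plxna1. Over M_WT the same ratios were 1.26, 1.158 and 1.21. The F differences of Plxnd1 and Plxna1 were thus within the spread of M_KO animals but beyond that of M_WT animals, and that of Plxnb2 was within both. Levels set F apart for 2 members, Plxna1 and Sema4a, whose F libraries both lay below every M library, as did 2.05% of all tested genes. Of the members, 0 had both F libraries above every M library, as 2.11% of all tested genes did.

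**Figure D3:**
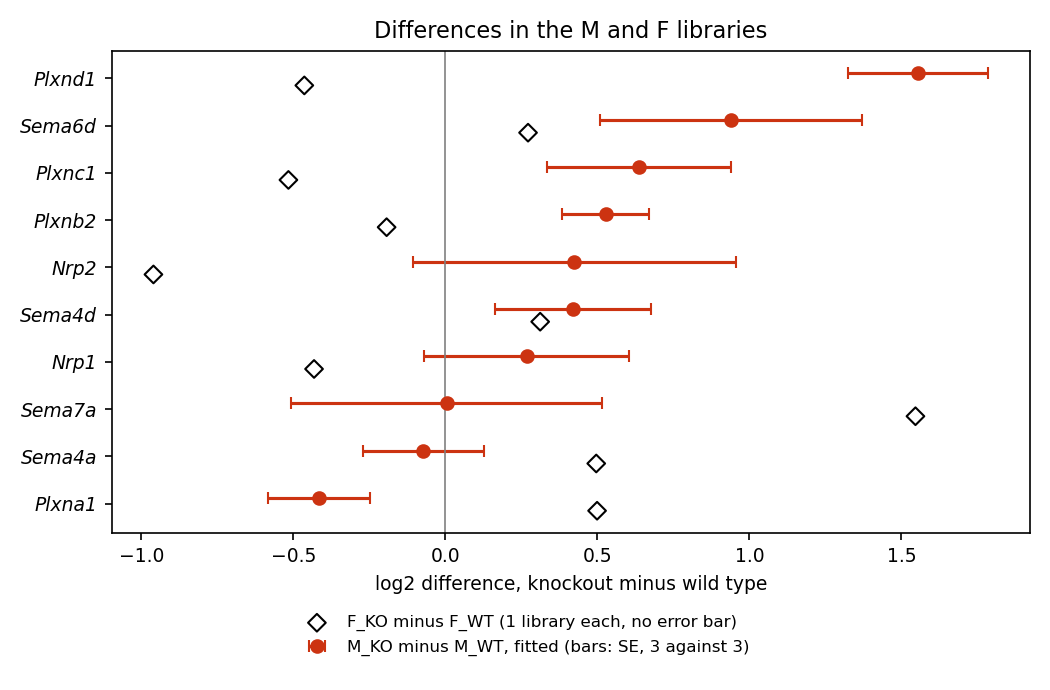
Log2 difference of knockout minus wild type (horizontal axis) for each gene, with filled points and SE bars for the fit of 3 M_KO against 3 M_WT libraries and open diamonds for the F pair. Plxnd1 stands at 1.55 in M and at -0.46 in F, and 7 of the 10 genes lie on opposite sides of 0. Among these 7, the SE bars of Sema4a, Nrp1 and Nrp2 reach past 0.

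By level per length in M_WT, Plxnb2 came first at 35.4 ± 2.75 FPKM (SD, n = 3), and its 3 libraries lay above all those of the next gene. Nrp2 (16.0 ± 5.85 FPKM) and Sema4a (14.5 ± 1.87 FPKM) followed and overlapped each other. Plxnd1 (8.24 ± 0.999 FPKM), Plxna1 (7.97 ± 0.863 FPKM) and Nrp1 (6.36 ± 1.53 FPKM) came next, each overlapping its neighbour. Sema4d (3.53 ± 0.830 FPKM) stood alone, and Plxnc1 (1.98 ± 0.264 FPKM) and Sema7a (1.40 ± 0.973 FPKM) overlapped. Sema6d was lowest at 0.184 ± 0.0337 FPKM. In M_KO, Plxnd1 reached 24.1 ± 7.19 FPKM, above the mean of Nrp2 (21.3 ± 12.6 FPKM), though the libraries of these genes overlapped.

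**Figure D4:**
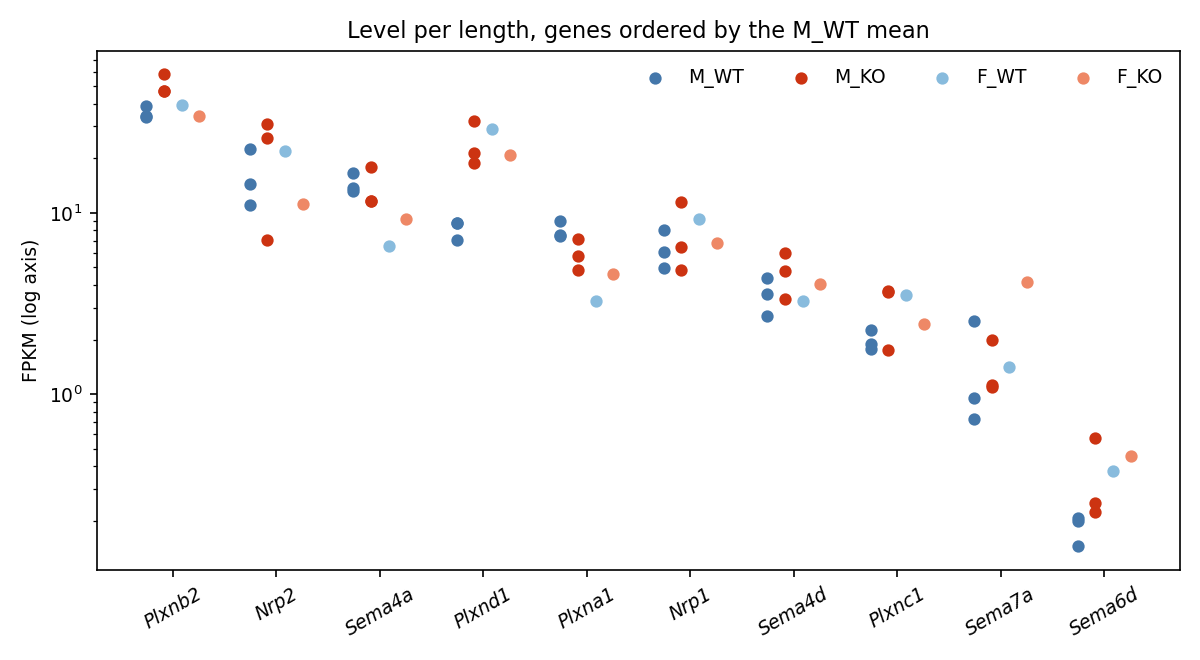
FPKM on a log axis (vertical) for the 10 genes in order of their M_WT mean (horizontal), with points for single libraries coloured by group. Plxnb2 is highest at 33.7 to 38.6 FPKM in M_WT, and Sema6d is lowest in every group.

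The other genes of the pathway were 64 plexins, semaphorins, further receptors with neuropilin ligands, and intracellular signalling genes, listed with earlier results known. Of these, 51 were tested. EdgeR called 0 of them, with 8 of 51 at an unadjusted p under 0.05 (9.56% of all tested genes), and their median log2 fold change was -0.08, beside 0.01 over all tested genes. DESeq2 called 0 higher and 1 lower. M_KO lay above M_WT without overlap for 2 (Limk1 and Pip5k1c), beside 9.0% of all tested genes, and below for 6 (Sema4b, Tyrobp, Vegfa, Dpysl3, Rap1b and Arf6), beside 7.15%.

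Among ligands, Sema3e, the secreted ligand of Plxnd1, had 3 counts in all 8 libraries together and at most 0.101 CPM in any. Sema6b, Sema3c and Sema4b were the most abundant semaphorins outside the 4 members. Sema6b had a log2 fold change of 0.75 (SE 0.55), with M_KO_5645 at 67.3 CPM and the other M libraries at 13.1 to 24.2 CPM. Sema3c, a secreted class 3 ligand, was at 20.98 to 27.3 CPM in M_WT and 13.0 to 28.5 CPM in M_KO. Sema4b was at 12.9 ± 1.51 CPM in M_WT and 9.13 ± 0.751 CPM in M_KO (SD, n = 3 each), with a log2 fold change of -0.50 (SE 0.17, edgeR adjusted p = 0.474). Vegfa, a VEGF that binds neuropilins, was the 1 gene called by DESeq2 (adjusted p = 4.85e-04, edgeR adjusted p = 0.330). Its values were 53.7, 80.6 and 65.7 CPM over the M_WT libraries against 27.8, 35.3 and 29.7 CPM in M_KO, with a log2 fold change of -1.11 (SE 0.18). In the F pair Vegfa was higher in F_KO, at 95.1 against 39.2 CPM.

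Among receptors, the plexins outside the set were scarce. Of the 4 tested, 3 had log2 fold changes above 0, with a median of 0.80 and Plxnb3 highest at 1.39 (SE 0.67), and all 4 overlapped between the groups. Outside the plexins, the semaphorin Sema6a (2.87, SE 1.19) and the receptor Erbb2 (1.90, SE 0.94) had larger fold changes than Plxnd1 at low levels. Sema6a stood at 0.395 to 7.03 CPM in M_KO and 0.106 to 1.14 CPM in M_WT, and Erbb2 at 0.237 to 5.32 CPM and 0.532 to 1.04 CPM, both with overlap. Of the 12 other receptors, co-receptors and neuropilin ligands tested, 10 had log2 fold changes below 0. Met was the lowest of them at -1.48 (SE 0.60), with overlap. Plxna4, Plxna2 and Plxna3 had mean levels of 0.808, 0.247 and 0.216 FPKM over the 8 libraries, and their log2 fold changes were -0.22 (SE 0.37), 0.615 (SE 0.55) and 0.98 (SE 0.58), in that order. Tyrobp, the DAP12 adaptor that couples Trem2 to plexin signals, was at 619.6 to 640.8 CPM in M_WT and 600.8 to 613.2 CPM in M_KO, a log2 difference of -0.05 (SE 0.12). Itgb1, the integrin chain of a Sema7a receptor, had a log2 fold change of -0.24 (SE 0.25). Of the signalling genes, the most abundant were Cfl1, an actin-severing protein, Rap1b, a GTPase on which plexin GAP domains act, and Rhoa. Their log2 fold changes were -0.17 (SE 0.21), -0.31 (SE 0.17) and -0.08 (SE 0.16). Apart from Plxnd1 and Vegfa, which DESeq2 called, neither edgeR nor DESeq2 called any of these genes.

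**Figure D5:**
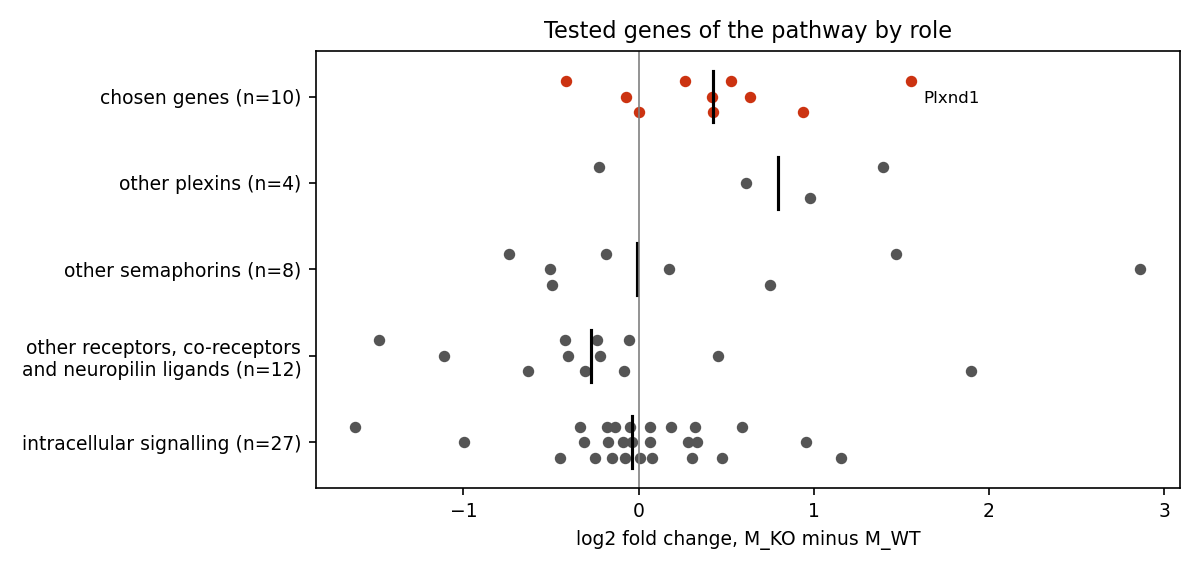
Log2 fold change of M_KO minus M_WT (horizontal axis) for the 10 chosen genes and the 51 tested pathway genes by role (rows), with 1 point per gene and a black bar at each median. Plxnd1 is the highest of the chosen genes at 1.55, while Sema6a (2.87) and Erbb2 (1.90) lie beyond it, and the medians are 0.80 for the other plexins, -0.01 for the other semaphorins, -0.27 for the other receptors and -0.04 for the signalling genes.

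Across the 8 libraries, the log2 CPM of Plxnd1 was among the most alike, by Pearson correlation over 10136 protein-coding genes, to that of Neurl2 (r = 0.98), Tgfbr2 (r = 0.95), Vps52 (r = 0.95) and Mrpl3 (r = 0.94). These are among the highest of many correlations over only 8 libraries, which share the genotype groups and the letter, and they are given without a test. Tgfbr2, a TGF-beta receptor, was at 74.0 to 85.1 CPM in M_WT, and at 160.4 to 213.2 CPM in M_KO, with F_WT at 183.9 and F_KO at 137.0 CPM. Like Plxnd1, it was lowest in the 3 M_WT libraries and lower in F_KO than in F_WT. Tgfbr2 was picked for likeness over these same libraries, so the shared pattern supports nothing further. Within the set, the correlation with Plxnd1 over the same libraries was 0.86 for Sema6d, 0.71 for Plxnc1, 0.68 for Plxnb2 and -0.82 for Plxna1, and it lay between -0.55 and 0.34 for the other 5.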

How the data were processed

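Whole read counts per gene were deposited by the authors without normalization. Per the submitters' processing notes, the tools were DESeq2 1.16.1, featureCounts 1.5.0-p3 and HISAT2 2.0.5, with the builds GRCm38 and mm10. A NEBNext Ultra RNA kit was used, per the labels' protocols. The sources used here do not give the strand setting or the treatment of multi-mapping reads. The deposited FPKM values served for levels per length. The authors' deposited table of M_KO against M_WT, with log2 fold changes and p-values, was used only for its calls; 16 value columns of that table and its excerpt were not used.

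The 6 M libraries were compared in edgeR 4.0.16 under R 4.3.3, with TMM factors, a quasi-likelihood fit and the default expression filter (13646 genes, 4 residual degrees of freedom). P-values were adjusted over all tested genes by the Benjamini-Hochberg method at 0.05. SEs come from the F statistic. Alternatives were DESeq2 1.42.0, limma 3.58.1 (voom, and log2 FPKM), other scalings and filters, all 8 libraries in 1 fit, a term for the number series of the animals, and leaving out each library. CPM values use TMM over all 8 libraries, and the F pair is given as a log2 CPM difference (prior count 2). A count of 0 allows up to 3 counts, 0.118 to 0.170 CPM by library; intervals cover counting error only. P-values set a difference against the spread between libraries and treat the animals as independent. The labels do not say whether litters or days were shared. The tests were tried on simulated data.

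The members and lists were chosen with earlier results of these data known. All members and Men1 were named. Other pathway genes were named if edgeR or DESeq2 called them or if they were among the 3 with the highest mean FPKM of their group. Limk1, Pip5k1c, Dpysl3, Arf6, Sema3e, Sema6a, Erbb2, Met and Plxnb3 were named after their values were seen. Genes like Plxnd1 were the 5 protein-coding genes with the highest Pearson correlation, a formal symbol and a mean log2 CPM of at least 1; 1 of them is not reported here. Start and end of 10 of 10 members equal those of GENCODE M21 (GRCm38).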

Additional observations from a re-analysis of the deposited data

Results flagged for a closer look

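For 7 genes among the members and the 51 tested pathway genes, the 3 M_KO libraries all lay on 1 side of the 3 M_WT libraries while the F pair differed the other way. The F pair has 1 library per genotype, and the difference between M and F was not tested. Men1 in F_KO measured 0.656 times F_WT, against 0.357 for the M means, and a link of this to the opposite signs was not tested. Plxnd1 and Plxnb2 were higher in M_KO but differed by -0.46 and -0.19 (log2, F_KO minus F_WT) in the F pair. Plxna1 was lower in M_KO but differed by 0.50 in the F pair. Outside the set, Vegfa was lower in M_KO and differed by 1.28 in the F pair, Dpysl3 by 0.31, Tyrobp by 0.21 and Sema4b by 0.15. Among all tested genes without overlap in M, 43.4% had the opposite sign in F.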

How the results depend on the processing

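The groups share no animal number, so animals could not be paired, and the labels give no litter or day to pair by. M_WT_5643, M_KO_5645 and M_KO_5642 carry numbers beginning with 56, as do F_WT_5638 and F_KO_5639. What that number series stands for is not given. With a term for it in the fit of the M libraries, the log2 fold change was 1.56 for Plxnd1, and 0.42 in place of 0.64 for Plxnc1. That term pools M_KO_5944 with M_WT_6258 and M_WT_6255. Their own number series each occur in a single genotype, so the term cannot separate those series from genotype. Over all genes, edgeR's count of 3 calls was 187 with DESeq2, 16 without a filter on low counts and 1 in a fit of all 8 libraries that adds the letter. It ranged from 0 to 21 when single libraries were left out (0 without M_WT_6255, 21 without M_WT_5643, 5 without M_WT_6258 or M_KO_5944). The count of called members was 1 in place of 0 with DESeq2 and 1 without the filter, Plxnd1 both times, and the count of other pathway genes was 1 with DESeq2. The log2 fold change of Plxnd1 was 1.081 over all 8 libraries, which include the F pair, and 1.28 to 1.70 without single M libraries. The same fit gave -0.19 for Plxna1 and 0.35 for Plxnb2. The excess of Plxnd1 over the median of the other 9 members was 0.73 over all 8 libraries and 0.90 to 1.565 without single libraries. Of the 251 alternative values, 233 kept to the main value within the spread between libraries, within 1.5 times for counts, or within the counting interval for the F pair. The sign of a member's log2 fold change differed from the main one in 11 cases, all of Sema7a, Sema4a or Nrp1. The counts of members without overlap were the same with RLE and upper-quartile scaling and, chosen after seeing the data, with FPKM. With 3 libraries per group, an exact permutation test cannot go below p = 0.1.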
